A study of Mus musculus with 24 samples.

Results

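Endothelial genes were examined in mouse limb buds through 9 members that mark the cells lining blood vessels: Kdr, Tek, Tie1, Cdh5, Pecam1, Erg, Fli1, Tal1 and Emcn. The members were chosen by name, and their peaks were those that overlapped the mm10 gene body or the 30 kb on either side of it. They are 9 of 21827 annotated protein-coding genes, and their windows held 249 of the 368246 peaks in 7 lists. Histone marks were mapped by ChIP-seq, the sequencing of DNA precipitated with an antibody to the mark, for acetylated histone H3 lysine 27 (H3K27ac) and dimethylated lysine 4 (H3K4me2) in forelimb buds of WT and Shh-/- embryos, and for trimethylated lysine 27 (H3K27me3), analysed here in Shh-/- limb buds alone. H3K27ac was also mapped in NIH3T3 cells. The limb buds came from E10.5 embryos of 32 to 35 somites on a Swiss Webster background and were pooled over embryos. Shh-/- embryos carried a null allele of Sonic hedgehog, and the group labelled wild type was, by the methods, a mixture of WT and heterozygous littermates. NIH3T3, a cultured fibroblast line from mouse embryos, was exposed for 48 h to 400 nM purmorphamine, a Hedgehog agonist, or to DMSO alone, and the labels of both conditions also name LIF. Each condition was immunoprecipitated in 2 libraries, but the deposited list was called on both together, so a condition has 1 list, no difference could be set against replicate spread, and no test was made.

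The contrast of limb bud with fibroblast line holds other differences that cannot be told apart from tissue. H3K27ac was precipitated with antibodies from different suppliers, from 400000 limb cells and 1000000 NIH3T3 cells per reaction, and the limb H3K27ac and H3K4me2 lists had 1 input per condition where the NIH3T3 and H3K27me3 lists had 2. The lists also differed in size, with 49679 (WT) and 43916 (Shh-/-) H3K27ac peaks in limb buds and 90989 (DMSO) and 87779 (purmorphamine) in NIH3T3 cells. Ranks are therefore given as a percentile of the peak's own list, where 0% is the strongest peak, and log2 ratios are the highest enrichment over input within a peak. Log2 ratios of different lists are given side by side as deposited, and no difference between lists is drawn from them. Limb buds are a mixed tissue, in which fewer endothelial cells and less of a mark per cell cannot be told apart. Markers of the main tissue matched the labels, since all 11 limb mesenchyme markers had an acetylated promoter in both limb H3K27ac lists, and all 10 fibroblast matrix genes had one in both NIH3T3 lists. Within 30 kb of Shh itself no list had an H3K27ac peak. H3K4me2 was called there 3 times in the WT list and 1 time in the Shh-/- list. Peak calls do not show whether the allele was deleted.

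Vessels invade the early limb bud and form a plexus within its mesenchyme. The members cover the parts of the endothelial program. Kdr is the main receptor for vascular endothelial growth factor, Tek and Tie1 are receptors of the angiopoietin pathway, Cdh5 and Pecam1 are adhesion proteins of endothelial junctions, and Emcn is a sialomucin of capillary and venous surfaces. Erg and Fli1 are ETS transcription factors that maintain endothelial identity and are also known in mesenchymal and cartilage lineages, and Tal1 is a basic helix-loop-helix factor needed for blood and early endothelium. H3K27ac marks active promoters and enhancers, H3K4me2 marks promoters and enhancers whether active or poised, and H3K27me3 is laid down by Polycomb complexes over silent genes.

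The marks were spread unevenly among the 9 genes. In WT limb buds the windows held 50 H3K27ac peaks, of which 33 (66.0%) lay at Fli1 and Erg, and the number per gene ran from 0 at Kdr and Emcn to 21 at Fli1. The median was 3 per member against 2 over all protein-coding genes, in windows whose median length was 151119 bp against 77385 bp. Member windows ran from 75330 bp at Tal1 to 287425 bp at Erg, with 180658 bp at Fli1, and the counts are not corrected for length. The best peak in the window of Fli1 ranked at 0.690% of the WT list, that of Erg at 3.29% and that of Tek at 7.40%. Those 3 genes therefore held acetylation among the best-ranked 10% of limb peaks, which contained 7 peaks at the members in all. The next were Pecam1 at 22.7%, where the best peak was on a neighbour's promoter, Tie1 at 38.2%, Tal1 at 39.2% and Cdh5 at 73.2%, and no spread is available to separate neighbours in this order. The order in NIH3T3 cells was another. In the DMSO list Pecam1 led at 12.2%, followed by Erg at 16.9%, Cdh5 at 26.0%, Fli1 at 28.3%, Tie1 at 38.0%, Tal1 at 38.1%, Tek at 50.9% and Emcn at 77.8%. Kdr had no acetylated region in either cell source.

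**Figure D1:**
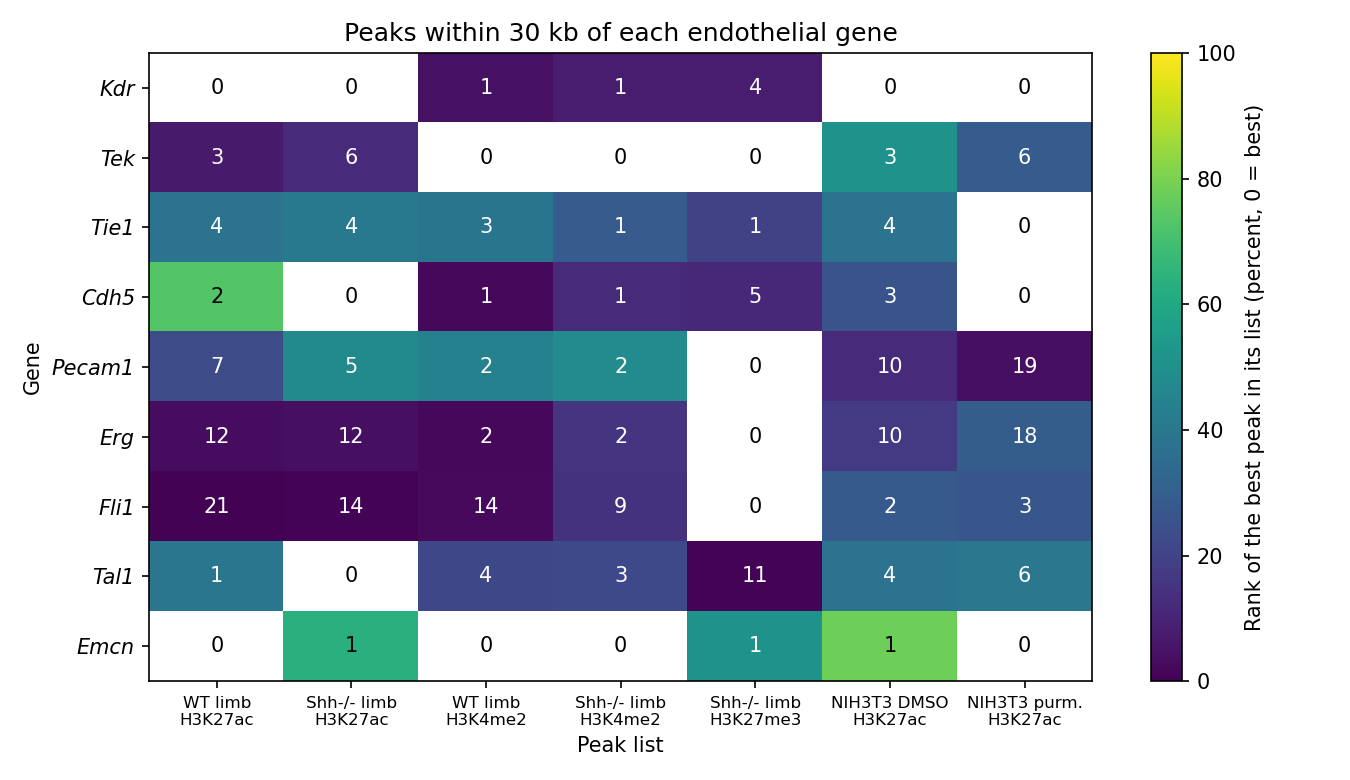
Each row is a gene and each column a pooled peak list; the number is the count of peaks within 30 kb of the gene body and the colour is the rank percentile of the best of them in its own list, with white for no peak. Fli1 and Erg carry 21 and 12 WT limb H3K27ac peaks, Kdr and Emcn none, and H3K27me3 peaks are most numerous at Tal1, with 11.

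Promoters were taken as the 2 kb before and 1 kb after the start of any coding transcript. An acetylated promoter was found for 4 of the 9 members in WT limb buds (Cdh5, Erg, Fli1 and Tal1), where 43.8% of all protein-coding genes had one. In Shh-/- limb buds it was 3 of 9 (Pecam1, Erg and Fli1) against 40.9% of all genes. Both counts are close to the share over all genes. In NIH3T3 cells Fli1 alone had an acetylated promoter with DMSO, against 52.9% of all genes, while Pecam1, Erg and Fli1 had one with purmorphamine, against 53.1%, so that either list marked 3 of 9 against 54.4%. With every H3K27ac list reduced to its best 43916 peaks, either NIH3T3 list marked 1 of 9, and the share of all genes was not recounted at that size. The promoters of Cdh5 and Tal1 were acetylated in WT limb buds and in neither NIH3T3 list, a pattern found at 2.73% of all genes, but the Cdh5 peak was 100 bp wide and at 98.3% of its list, and neither gene had such a peak in Shh-/- limb buds. H3K4me2 was present at 4 promoters in WT (Kdr, Erg, Fli1 and Tal1) and at 3 in Shh-/- limb buds (Kdr, Erg and Fli1), against 64.0% and 63.5% of all genes. Promoters of Tek, Tie1, Pecam1, Cdh5 and Emcn had no H3K4me2 peak in either list.

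Among the transcription factors, Fli1 (ENSMUSG00000016087, chromosome 9, 32422204 to 32542861, minus strand) carried the strongest and widest limb acetylation of the 9 genes. A WT H3K27ac peak of 3900 bp covered its promoter (chr9:32540350-32544249, log2 ratio 6.16, rank 568, 1.14%), and only 188 of the 49679 WT peaks were wider. In Shh-/- limb buds the peak at the same place was 4900 bp wide with a log2 ratio of 6.05 and stood at 0.833% of its list, where 89 of 43916 peaks were wider. H3K4me2 lay over the same promoter in both genotypes. Its best-ranked promoter peak was at 2.36% in WT (1950 bp) and at 23.1% in Shh-/- limb buds (250 bp), where the widest, of 2750 bp, stood at 34.4%. There was no H3K27me3 peak in the window. In NIH3T3 cells the promoter peak was 350 bp wide in both lists. It had a log2 ratio of 3.18 at 28.3% of the DMSO list and of 2.92 at 41.6% of the purmorphamine list. Fli1 was thus acetylated at its promoter in all 4 H3K27ac lists, and the limb peaks there were wider and better ranked within their lists. The 21 WT peaks covered 14750 bp of the window and the 14 Shh-/- peaks 13200 bp, while the 2 DMSO peaks covered 500 bp and the 3 purmorphamine peaks 1100 bp.

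The other Fli1 peaks lay mainly in 4 regions. The strongest lay upstream, 8.78 kb before the start (chr9:32549300-32551449, log2 ratio 6.39, rank 343, 0.690%), and overlapped a Shh-/- peak at 6.84% with a log2 ratio of 4.79. An intronic region 46.9 kb into the gene (chr9:32494150-32495299, 3.45% in WT and 10.4% in Shh-/-) was also H3K4me2-marked in WT. A region past the end of the gene, 132 kb from the start (chr9:32408850-32410449, 4.33% in WT and 11.4% in Shh-/-), carried H3K4me2 in both genotypes. None of these 3 regions overlapped an NIH3T3 peak. The region that NIH3T3 cells shared was 97.3 kb into the gene, in an intron (chr9:32444150-32444449), at 17.5% of the WT list, at 93.6% of the DMSO list and at 37.0% of the purmorphamine list, and it had no counterpart in Shh-/- limb buds. Of the 21 WT peaks 3 overlapped an NIH3T3 peak of either list, where 41.6% of all WT peaks did. A Shh-/- peak was overlapped by 10 of the 21, where 51.5% of all WT peaks overlapped one.

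**Figure D2:**
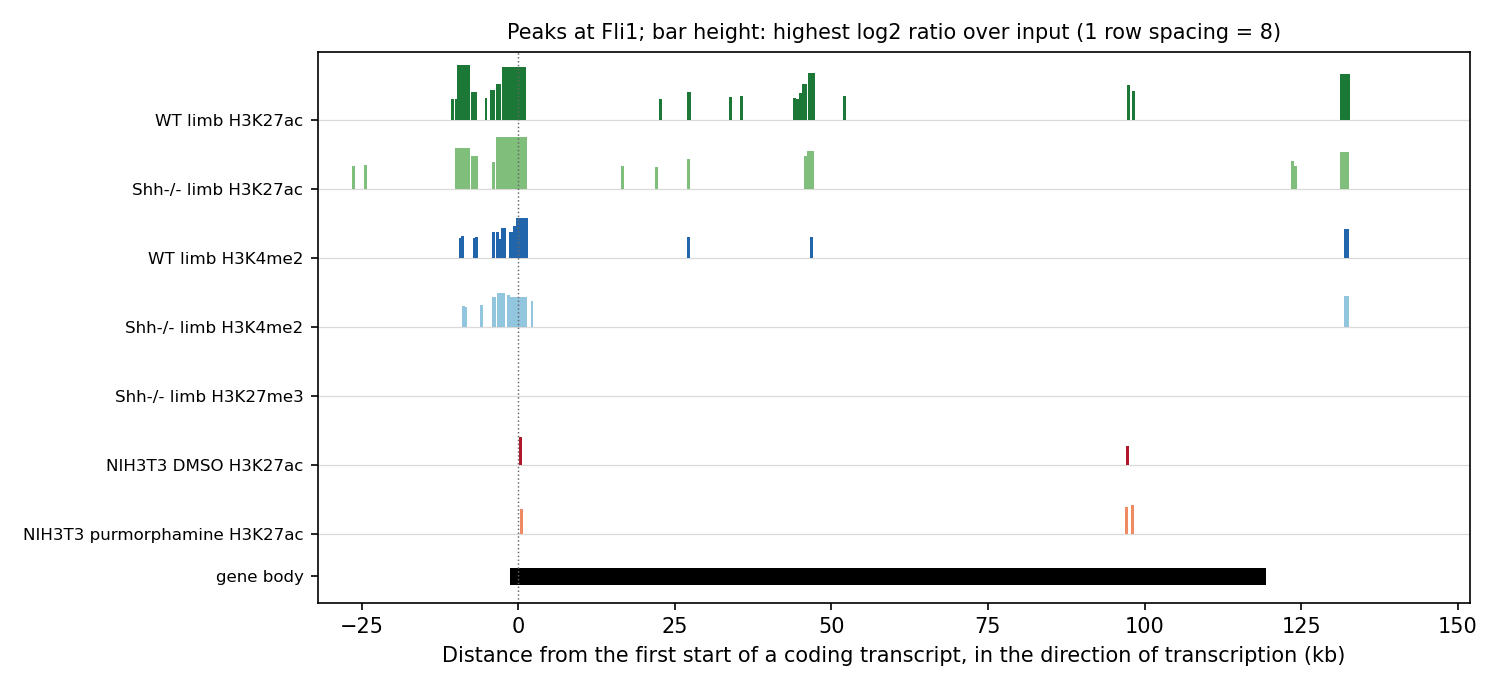
Bars are peaks at Fli1 in the 7 lists, placed by distance in kb from the start along the direction of transcription, with height for the highest log2 ratio over input and a black bar for the gene body. The limb rows hold a wide promoter block and further groups 8.78 kb upstream and 46.9 kb and 132 kb downstream, whereas the NIH3T3 rows hold only narrow peaks at the promoter and about 97.3 kb downstream.

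The 300 bases at the middle of the strongest upstream and intronic Fli1 peaks are given as the regions that separated the limb lists from NIH3T3 cells at this gene. They are plus-strand GRCm38.p6 sequence at chr9:32550225-32550524 and chr9:32494575-32494874, and capitals mark a match on either strand to any of the motifs listed at the end. The upstream sequence held none, and the intronic one held an E-box CAGATG on the minus strand, which describes letters and not a mapped site.
Fli1 upstream: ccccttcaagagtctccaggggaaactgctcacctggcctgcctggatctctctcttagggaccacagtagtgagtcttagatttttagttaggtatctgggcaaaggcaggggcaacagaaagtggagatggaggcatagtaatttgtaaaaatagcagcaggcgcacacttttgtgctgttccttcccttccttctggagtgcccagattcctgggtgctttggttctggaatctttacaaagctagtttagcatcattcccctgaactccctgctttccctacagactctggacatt
Fli1 intron: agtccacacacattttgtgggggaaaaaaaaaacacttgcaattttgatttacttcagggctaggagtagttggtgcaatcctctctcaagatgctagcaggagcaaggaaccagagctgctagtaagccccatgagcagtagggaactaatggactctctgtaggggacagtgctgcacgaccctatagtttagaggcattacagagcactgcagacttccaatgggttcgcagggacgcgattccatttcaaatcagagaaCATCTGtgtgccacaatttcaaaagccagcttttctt

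Erg (ENSMUSG00000040732, chromosome 16, 95359169 to 95586593, minus strand) had 12 H3K27ac peaks in each limb list, 10 in DMSO-treated and 18 in purmorphamine-treated NIH3T3 cells, at mostly different positions. The strongest limb region was intronic, 117 kb from the first start (chr16:95468700-95470899, log2 ratio 5.55, 3.29% in WT). Its Shh-/- counterpart had a log2 ratio of 5.19 and stood at 4.02%. No NIH3T3 peak overlapped it, although a purmorphamine peak of 200 bp lay nearby at 119 kb. A weaker limb group lay 96.1 kb from the first start (chr16:95490000-95490999, 21.2% in WT and 23.6% in Shh-/-) and was absent from both NIH3T3 lists. NIH3T3 cells were instead acetylated 146 kb from the first start (chr16:95440650-95441399, 16.9% of the DMSO list) and 13.6 kb from it (chr16:95572700-95573349, 26.3%), where neither limb list had a peak. The exception was a region 15.8 kb upstream (chr16:95601950-95602799, log2 ratio 5.13, 5.74% in WT), which was acetylated in all 4 lists.

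The Erg promoters were marked differently from those of Fli1. H3K4me2 covered the first promoter in WT (chr16:95584900-95585999, log2 ratio 4.67, 2.02%) and Shh-/- limb buds (15.0%). No WT acetylation was found there. A Shh-/- H3K27ac peak of 100 bp at 69.4% and a purmorphamine peak of 150 bp at 87.5% were the acetylation called there. The WT promoter peak lay at an internal start (chr16:95458300-95458649, 31.3%), 771 bp inside the nearest transcript. A Shh-/- H3K27ac peak lay at the same internal promoter without overlapping it (chr16:95458800-95459149, 76.9%), 271 bp from the start. There was no H3K27me3 peak in the window. Of the 12 WT peaks, 1 overlapped an NIH3T3 peak and 7 overlapped a Shh-/- peak, against 41.6% and 51.5% of all WT peaks.

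**Figure D3:**
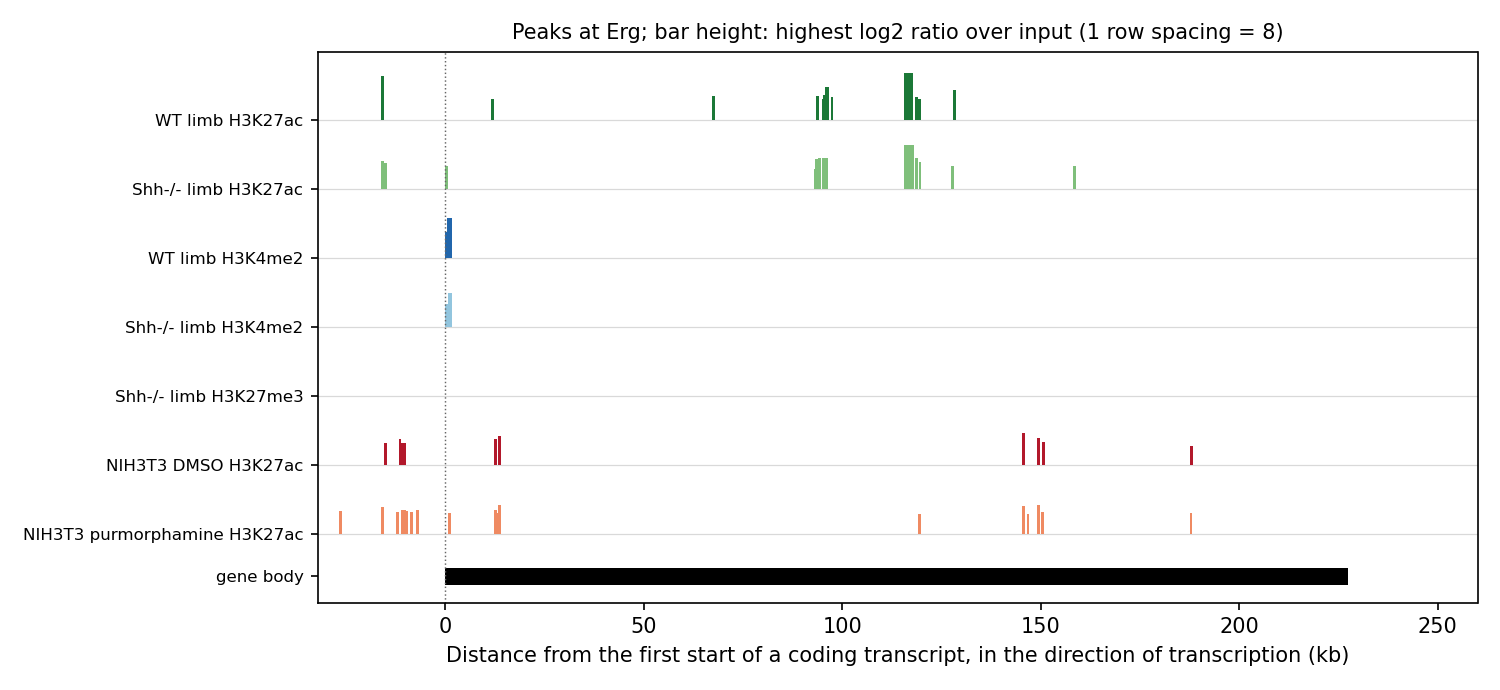
Bars are peaks at Erg in the 7 lists, placed by distance in kb from the first start along the direction of transcription, with height for the highest log2 ratio over input. The limb H3K27ac rows peak at 117 kb and 96.1 kb, the NIH3T3 rows at 146 kb and 13.6 kb, and all 4 rows meet only 15.8 kb upstream.

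The middle 300 bases of the intronic Erg region are given because it was the strongest region of this gene in both limb lists and in neither NIH3T3 list. The sequence is the plus strand of GRCm38.p6 at chr16:95469650-95469949, with capitals for an E-box CAGATG.
Erg intron: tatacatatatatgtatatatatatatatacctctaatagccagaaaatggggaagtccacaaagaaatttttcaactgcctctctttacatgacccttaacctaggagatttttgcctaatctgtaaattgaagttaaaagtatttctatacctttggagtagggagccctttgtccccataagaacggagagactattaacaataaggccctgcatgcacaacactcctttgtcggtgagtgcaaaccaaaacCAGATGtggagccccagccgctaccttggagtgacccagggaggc

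Tal1 (ENSMUSG00000028717, chromosome 4, 115056426 to 115071755, plus strand) was the member with the most H3K27me3. A peak of 9150 bp covered its promoters and the first exons (chr4:115055150-115064299, log2 ratio 4.85, rank 218, 1.05%), and 70 of the 20830 H3K27me3 peaks were wider. With 10 further peaks, H3K27me3 covered 13950 bp of the window. Acetylation in the limb was limited to a WT peak of 200 bp at an internal promoter (39.2%), inside the H3K27me3 region of the Shh-/- list, and Shh-/- limb buds had none. H3K4me2 was present in both genotypes 3.78 kb upstream and over an untranslated region 6.97 kb from the start, and at the promoter in WT only (32.2%). NIH3T3 acetylation never fell on the gene body. It fell on the region 3.85 kb upstream in both treatments (38.1% with DMSO), a position at which limb buds had H3K4me2 and H3K27me3 and no H3K27ac, and on the promoter of the neighbour Pdzk1ip1. With purmorphamine alone it also fell on a region 39.5 kb from the start (54.1%), where limb buds again had H3K4me2 and H3K27me3.

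Among the receptors, Kdr (ENSMUSG00000062960, chromosome 5, 75932827 to 75978458, minus strand) had no H3K27ac peak in any of the 4 lists. Its promoter was nevertheless strongly marked by H3K4me2, at 4.63% of the WT list (chr5:75977800-75979299, 1500 bp, log2 ratio 4.41) and at 7.52% of the Shh-/- list (1450 bp, log2 ratio 4.26). In Shh-/- limb buds H3K27me3 overlapped that region from within the gene (chr5:75977500-75978299, log2 ratio 3.65, 8.19%), with 3 weaker peaks around it. Counted over all starts of a gene, H3K4me2 without H3K27ac at any promoter was found in WT limb buds for 21.1% of all genes. Among the members it was found for Kdr alone. The first promoters of Erg and Tal1 also had H3K4me2 without H3K27ac in WT, but both genes had a WT H3K27ac peak at an internal promoter.

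The 250 bases before the Kdr start are given because both H3K4me2 and H3K27me3 were called around them. They come from the RefSeq promoter table of GRCm38.p6, chr5:75978456-75978705 on the minus strand, with capitals for an E-box CAGATG.
Kdr promoter: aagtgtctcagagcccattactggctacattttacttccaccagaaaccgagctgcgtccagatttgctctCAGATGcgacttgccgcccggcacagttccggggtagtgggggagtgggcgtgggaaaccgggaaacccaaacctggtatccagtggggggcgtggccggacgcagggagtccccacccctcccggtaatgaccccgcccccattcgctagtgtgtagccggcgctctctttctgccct

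Tek (ENSMUSG00000006386, chromosome 4, 94739289 to 94874976, plus strand) was acetylated inside the gene in all 4 H3K27ac lists and at no promoter. The limb peaks were intronic and clustered 24.2 to 27.5 kb from the first start. The strongest was at 7.40% in WT (chr4:94765600-94766399, log2 ratio 4.91) and overlapped a Shh-/- peak of 1250 bp at 11.7%, with a log2 ratio of 4.33. All 3 WT peaks had a Shh-/- counterpart. The 3 DMSO and 6 purmorphamine peaks of NIH3T3 cells lay 64.7 to 72.6 kb from the start, the best at 29.1% of the purmorphamine list. No limb peak at Tek overlapped an NIH3T3 peak, and the window had neither H3K4me2 nor H3K27me3. Tie1 (ENSMUSG00000033191, chromosome 4, 118471191 to 118490061, minus strand) had 4 H3K27ac peaks in each of the WT, Shh-/- and DMSO lists and none with purmorphamine. They lay mainly at the far end of the gene, where a WT peak over the last exon and its untranslated region (chr4:118470950-118471499, 38.2%) overlapped Shh-/- and DMSO peaks. Tie1 had no mark at its promoter, and its H3K27me3 was a single 150 bp peak over an exon (19.4%).

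**Figure D4:**
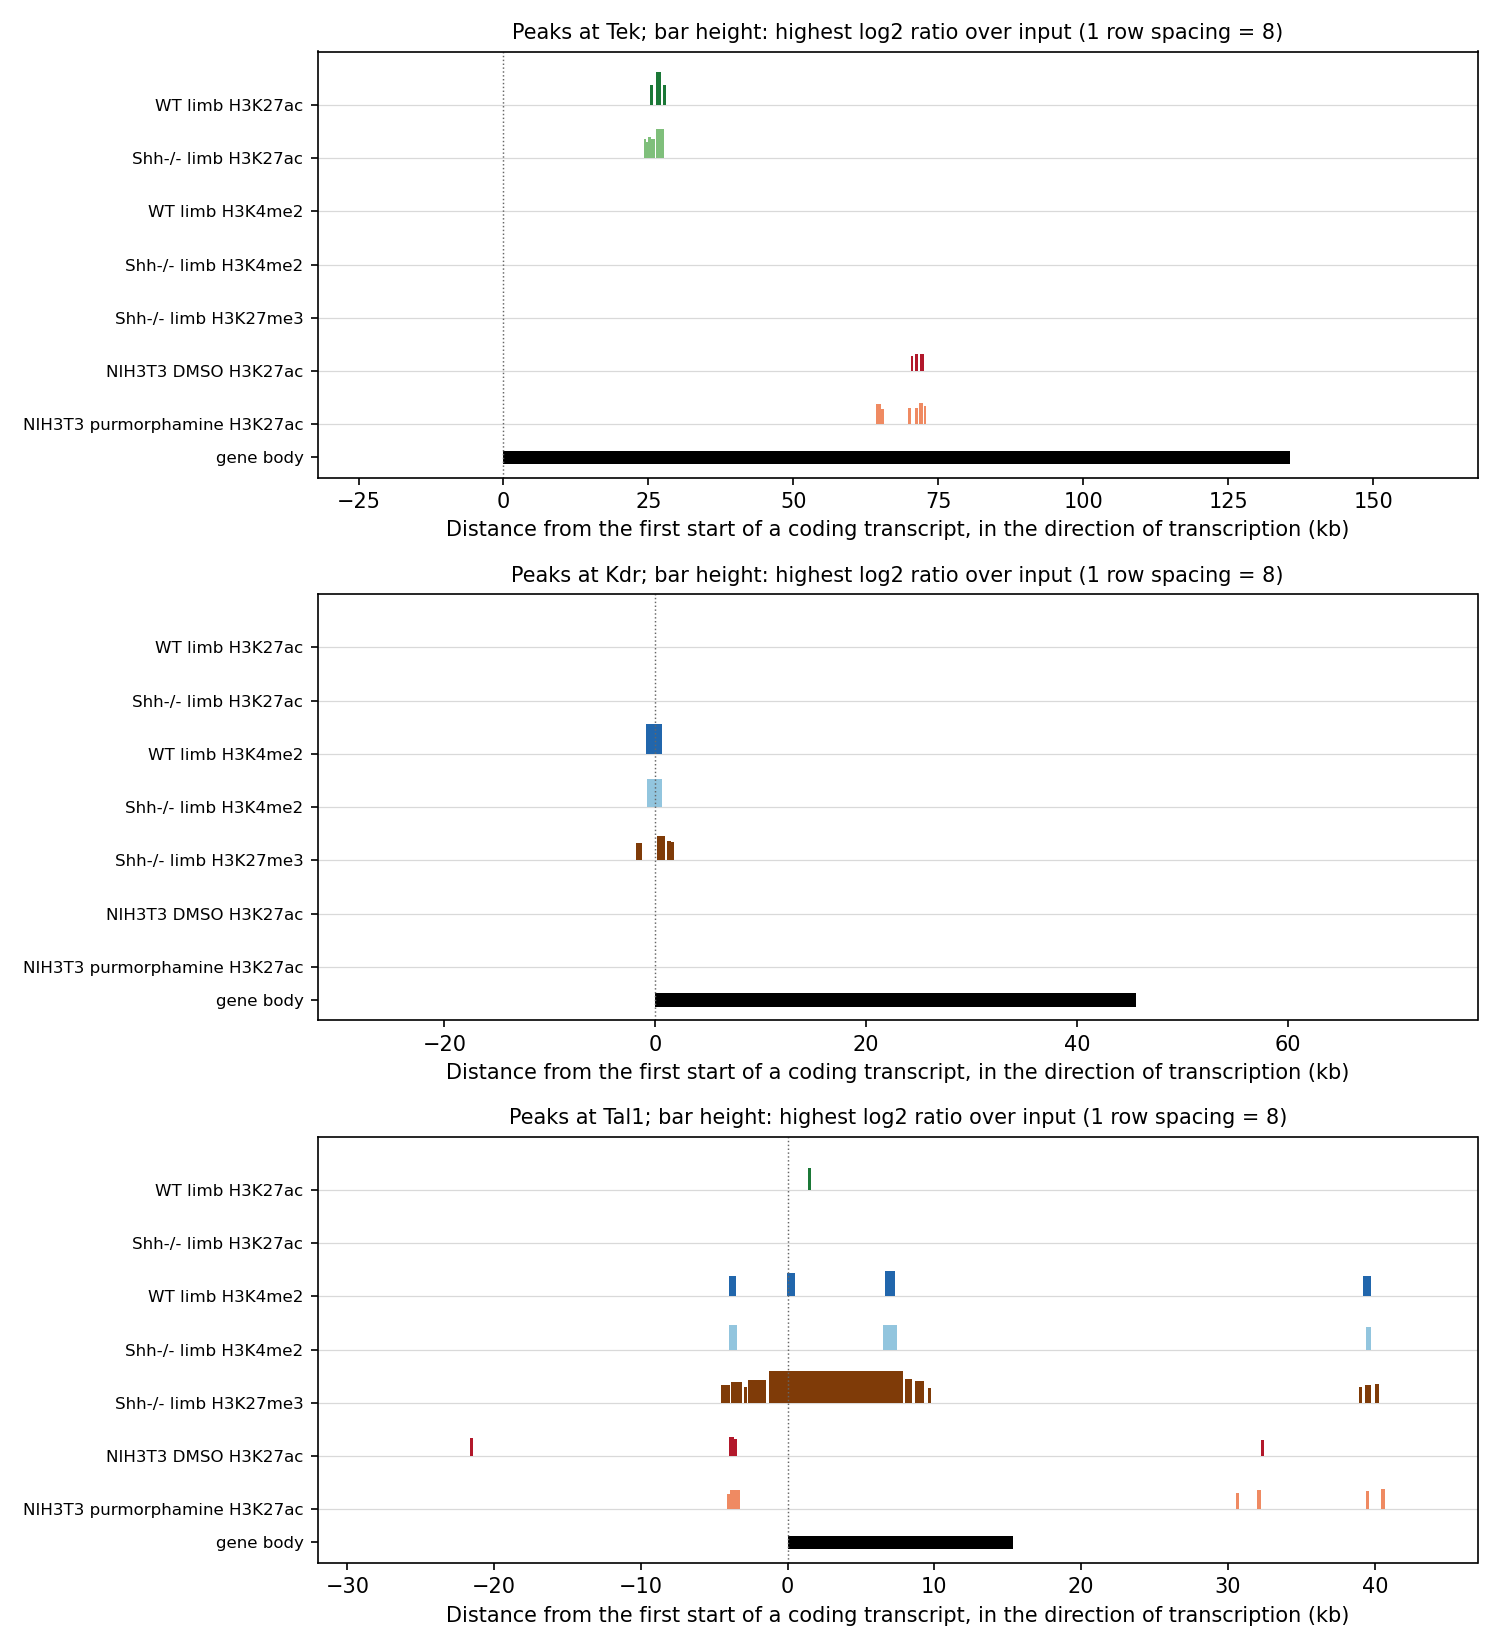
Bars are peaks at Tek, Kdr and Tal1 in the 7 lists, placed by distance in kb from the first start, with height for the highest log2 ratio over input. Limb and NIH3T3 acetylation occupy separate stretches of Tek, Kdr shows H3K4me2 and H3K27me3 at its start and no H3K27ac, and a 9150 bp H3K27me3 peak covers the Tal1 promoters.

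The middle 300 bases of the strongest limb region of Tek, at chr4:94765850-94766149 on the plus strand of GRCm38.p6, contained none of the motifs searched. They are shown as the intronic region shared by the limb genotypes and not by NIH3T3 cells.
Tek intron: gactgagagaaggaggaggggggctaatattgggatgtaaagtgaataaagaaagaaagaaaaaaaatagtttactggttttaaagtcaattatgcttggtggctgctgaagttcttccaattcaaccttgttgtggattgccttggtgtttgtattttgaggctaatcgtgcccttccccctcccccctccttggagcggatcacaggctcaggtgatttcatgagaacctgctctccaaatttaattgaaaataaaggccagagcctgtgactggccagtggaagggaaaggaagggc

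Among the adhesion and surface proteins, no limb H3K27ac peak stood in the best-ranked 10% of its list. Cdh5 (ENSMUSG00000031871, chromosome 8, 104101625 to 104144511, plus strand) had 2 WT H3K27ac peaks and none in Shh-/- limb buds. The one at its promoter stood at 98.3% of the list, and the other, 6.28 kb upstream, at 73.2%. NIH3T3 cells with DMSO had 3 peaks 8.95 to 9.92 kb into the gene, the best at 26.0%, and with purmorphamine none. The H3K4me2 and H3K27me3 peaks in the Cdh5 window belonged to the neighbour Bean1, at whose promoter or beside it they all lay. Pecam1 (ENSMUSG00000020717, chromosome 11, 106654217 to 106750628, minus strand) had the largest acetylated length of the members in both NIH3T3 lists. It had 7 WT and 5 Shh-/- peaks covering 2050 and 1150 bp, against 10 DMSO and 19 purmorphamine peaks covering 5800 and 9950 bp. The strongest in NIH3T3 cells was intronic (chr11:106674750-106675599, log2 ratio 4.61, 4.13% with purmorphamine and 21.9% with DMSO), and a Shh-/- peak at 47.8% overlapped it. The best intronic WT peak (chr11:106659400-106660199, 22.8%) was shared with both NIH3T3 lists, at 12.2% with DMSO and 11.9% with purmorphamine. An internal Pecam1 promoter was acetylated in Shh-/- limb buds (250 bp, 56.1%) and with purmorphamine (250 bp, 71.7%). In every H3K27ac and H3K4me2 list the window also contained peaks on the promoter of the neighbour Polg2. Emcn (ENSMUSG00000054690, chromosome 3, 137341067 to 137432185, plus strand) had 3 peaks in all 7 lists, a Shh-/- H3K27ac peak at 63.4%, a DMSO peak at 77.8% and a 150 bp intronic H3K27me3 peak at 51.2%. None of the 3 was at its promoter.

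H3K27me3 in Shh-/- limb buds was found over the gene body or promoter of 4 of 9 members (Kdr, Tie1, Tal1 and Emcn), against 22.9% of all genes, and at the promoter of Kdr and Tal1, against 13.4%. At Tie1 and Emcn it was 1 peak of 150 bp each. The median gene body was 91119 bp for the members against 17385 bp for all genes, so the gene body counts are not matched for length. The H3K27me3 list holds peaks with a false discovery rate of up to 0.255, and the Emcn peak stood at 0.063. With a false discovery rate under 0.05 the gene body or promoter count was 3 of 9, and the share of all genes was not recounted at that limit. WT limb buds have no H3K27me3 list here, so the genotypes cannot be compared for this mark.

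The limb and NIH3T3 lists were then compared peak by peak. A peak was counted as shared when at least 1 bp overlapped a peak of the other list. A window peak was present for 7 of 9 members in the WT and 6 of 9 in the Shh-/- list, against 69.3% and 66.6% of all genes. In NIH3T3 cells it was 8 of 9 with DMSO and 5 of 9 with purmorphamine, against 73.0% and 72.4%. Of the 50 WT H3K27ac peaks at the members, 9 (18.0%, 95% Wilson interval 9.77 to 30.8, counting error only) overlapped an NIH3T3 peak of either list, against 41.6% of all WT peaks. Of the 42 Shh-/- peaks 11 (26.2%, 15.3 to 41.1) were shared with NIH3T3 cells, against 43.5%. In the reverse direction, 10 of 37 DMSO peaks (27%, 15.4 to 43.0) and 10 of 52 purmorphamine peaks (19.2%, 10.8 to 31.9) overlapped a limb peak, against 20.7% and 21.2% of all peaks of those lists. Over all positions the intervals of both limb shares thus lay below the share of their lists, while the intervals of both NIH3T3 shares contained it. The shares were also taken away from every annotated promoter, a comparison chosen after values were seen. There 6 of 44 WT peaks (13.6%, 6.40 to 26.7) against 24.0% and 7 of 36 Shh-/- peaks (19.4%, 9.75 to 35.0) against 25.1% overlapped an NIH3T3 peak, and both intervals contained the share over all such peaks. From the NIH3T3 side it was 7 of 33 DMSO peaks (21.2%, 10.7 to 37.8) against 10.4%, which lay just under that interval, and 6 of 45 purmorphamine peaks (13.3%, 6.26 to 26.2) against 10.9%. The lower limb share therefore did not stand clear of counting error once promoters were left out. Of the 9 shared WT peaks, 4 lay at Pecam1, 2 of them on the Polg2 promoter, and without Pecam1 the WT share was 11.6%. Peaks of a gene are neighbours and are not independent, and 33 of the 50 belonged to Fli1 and Erg.

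Across genotypes, 23 of the 50 WT H3K27ac peaks (46.0%, 33.0 to 59.6) overlapped a Shh-/- peak, against 51.5% of all WT peaks, and 19 of 42 Shh-/- peaks (45.2%, 31.2 to 60.1) overlapped a WT peak, against 61.6%. For H3K4me2, 19 of 27 WT peaks (70.4%, 51.5 to 84.1) were shared against 74.3%, and 15 of 19 Shh-/- peaks (78.9%, 56.7 to 91.5) against 77.5%. All but the Shh-/- H3K27ac share had an interval that contained the value over all peaks, and there the upper end of the interval, 60.1, lay just under it. Overlap of separately called lists does not measure the loss of a mark. The paper instead counted reads over merged peaks and reported most H3K27ac regions in both genotypes and nearly all H3K4me2 peaks unchanged. It also reported a subset of H3K27ac regions reduced or lost in Shh-/- limb buds. All 7 member peaks in the best-ranked 10% of the WT list had a Shh-/- counterpart. Of the whole WT list of 49679 peaks, 4926 in the best-ranked 10% had one, so a counterpart was usual at this rank. The counterparts of the member peaks stood at 0.833% to 11.7% of the Shh-/- list at Fli1, Tek and the Erg intron, where the median over all such peaks was 6.95%. The upstream Erg region was apart, at 36.6%. Counterparts past 30% were found for 7.82% of those in the best-ranked 10% of WT peaks, a limit chosen after the Erg value was seen.

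Purmorphamine and DMSO were compared in NIH3T3 cells for the same genes. Of the 52 purmorphamine peaks at the members, 24 (46.2%, 33.3 to 59.5) overlapped a DMSO peak, against 63.5% of that list, and of the 37 DMSO peaks 24 (64.9%, 48.8 to 78.2) overlapped a purmorphamine peak, against 58.9%. Peak numbers were higher with purmorphamine at Pecam1 (19 against 10), Erg (18 against 10), Tek (6 against 3), Tal1 (6 against 4) and Fli1 (3 against 2). They were lower at Tie1 (0 against 4), Cdh5 (0 against 3) and Emcn (0 against 1), and Kdr had none in either. Each treatment has 1 list, so these numbers have no error.

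Other genes of the vessel and of the tissues around it were counted by promoter. Of 38 endothelial genes that are not members, 10 (26.3%) had an acetylated promoter in WT limb buds, 17 in either NIH3T3 list, 26 an H3K4me2 promoter in WT limb buds and 18 (47.4%) an H3K27me3 promoter in Shh-/- limb buds. The share with acetylation was below and the share with H3K27me3 above those of all genes given for these marks before. Of these 38 genes, 3 were acetylated in WT limb buds and in neither NIH3T3 list, against 2.73% of all genes. They were Lmo2, a partner of Tal1, at 22.7% of the list, Clec14a, a surface glycoprotein of endothelium, at 46.0%, and Hhex, a homeobox factor of early endothelium, at 54.8%. In Shh-/- limb buds the promoters of Lmo2 and Hhex also carried H3K27me3, and that of Hhex was not acetylated. In the opposite direction 10 of the 38 were acetylated in NIH3T3 cells and not in WT limb buds. Over all genes 54.4% were acetylated in either NIH3T3 list and 43.8% in WT limb buds. The share of all genes with the joint pattern was not counted, so nothing is read from the 10. Of 8 ligands and angiogenic signals 5 had an acetylated promoter in WT limb buds and 6 in NIH3T3 cells. Angpt1, a ligand of the Tek receptor, was acetylated in limb buds of both genotypes and not in NIH3T3 cells (47.5% in WT), while Pgf and Pdgfb, ligands of growth factor receptors in vessels, were acetylated with purmorphamine alone. Among 5 pericyte genes 2 were acetylated in WT limb buds, and Notch3, a receptor of mural cells, was so in the limb and not in NIH3T3 cells (5.43%), whereas Cspg4 and Acta2 were acetylated in NIH3T3 cells and not in WT limb buds.

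Markers of other cells in the bud gave the scale for these counts. All 11 mesenchyme genes were acetylated in WT limb buds, and 5 of them, Tbx5 (0.123%), Lmx1b (3.28%), Hand2 (5.01%), Msx1 (5.77%) and Msx2 (8.23%), were so in neither NIH3T3 list. None of the 8 ectoderm and none of the 5 muscle precursor genes had an acetylated promoter in the WT list. In the Shh-/- list 1 ectoderm gene, Dlx5, and 2 muscle precursor genes, Pax3 and Lbx1, had one, named here after their values were seen. H3K27me3 lay at 5 and 4 promoters of these lists in Shh-/- limb buds. Of 12 blood genes 1 was acetylated in WT limb buds, Myb (51.4%), and Csf1r and Runx1 were acetylated in NIH3T3 cells and not in WT limb buds. Trp63 and Cdh1 of the ectoderm and Met of the muscle precursors were likewise acetylated in NIH3T3 cells and not in WT limb buds. The blood, ectoderm and muscle lists thus had at most 1 acetylated promoter each in the WT limb list, while 10 of 10 fibroblast matrix genes were acetylated in NIH3T3 cells and 3 of 10 in WT limb buds.

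**Figure D5:**
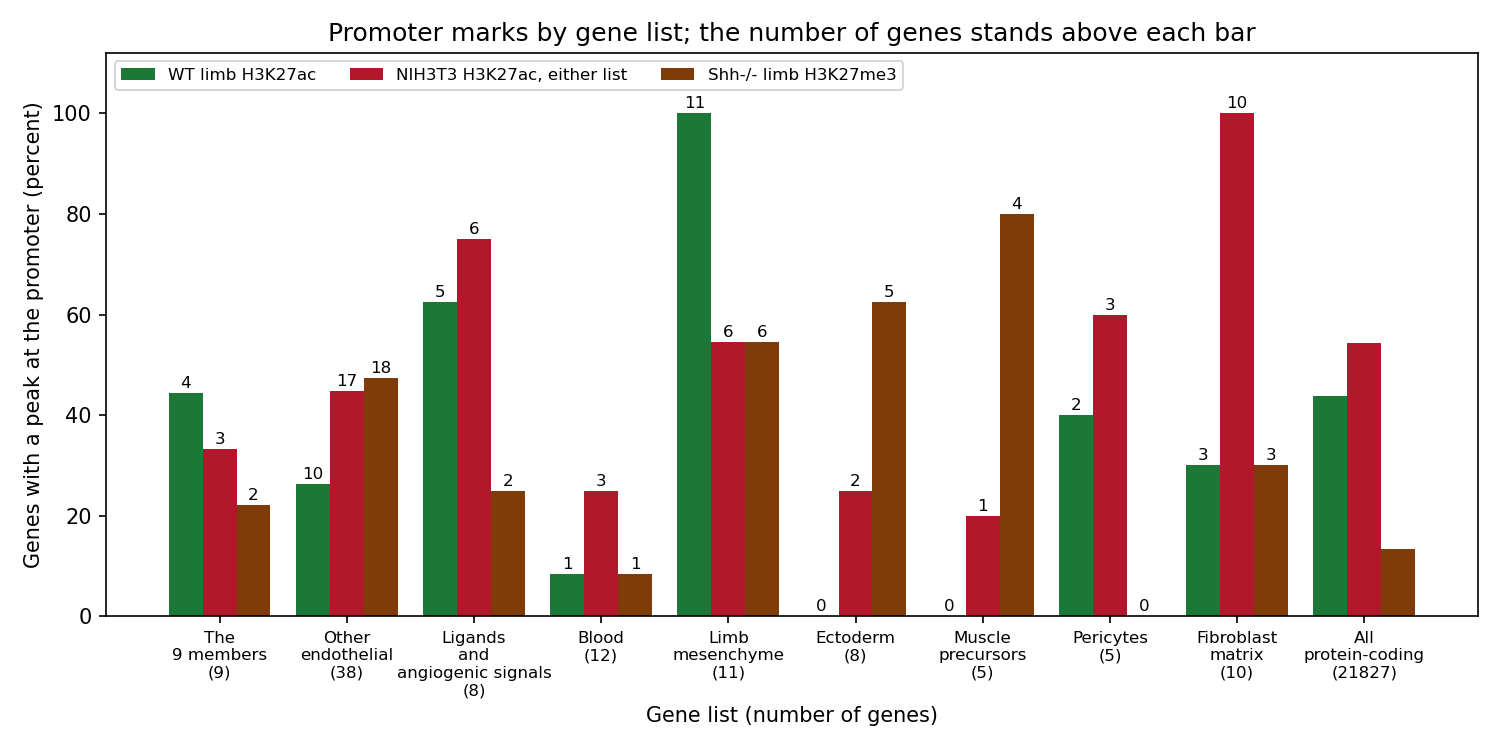
Bars give, for each gene list, the percent of genes with a promoter peak for WT limb H3K27ac, NIH3T3 H3K27ac in either list and Shh-/- limb H3K27me3, with the number of genes above the bar and all protein-coding genes at the right. Limb mesenchyme reaches 11 of 11 in WT limb H3K27ac, the members 4 of 9 and the other endothelial genes 10 of 38.

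A search for the genes whose promoter profile over the 7 lists was nearest to the members' median named none. The median log2 ratio was 0 in every list, a profile shared exactly by 6629 other genes. The members themselves differed, since Tek, Tie1 and Emcn had no promoter peak in any list and the other 6 had one in at least 1 list.

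Short sequence words were searched in the middle 300 bases of each WT H3K27ac peak on both strands, without counting them as binding sites. The GATA word AGATAA was in 12 of 50 member peaks (24.0%) against 13.8% of all WT peaks and 16.4% of those off promoters. The E-box CAGATG was in 10 (20.0%) against 19.5%, and the AP-1 word TGACTCA in 2 (4.00%) against 4.33%. The ETS words CCGGAAGT, ACAGGAAG and AACAGGAA, of which the last 2 overlap in letters, were in 3 of 50 as a group (6.00%) against 6.00% of all peaks, and the GLI word GACCACCCA was in none against 0.252%. The counts are small and no order was read from them. RefSeq promoters of 300 bases were matched for 6 of 9 members, so no share over the members is given. In them Emcn held both ACAGGAAG and AACAGGAA (in 3.58% and 2.65% of all promoters), Tek, Tal1 and an internal Erg promoter held AGATAA (11.2%), and Kdr, Tal1 and Tie1 held CAGATG (17.2%).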

How the data were processed

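ChIP-seq peak lists of 7 conditions were analysed, made from 14 ChIP and 10 input libraries in 14 groups taken from the sample labels. The submitters' processing notes name Bowtie2 2.2.5, limma and mm10, and by the methods peaks were called with CisGenome against input on both replicates together. The rank in each list follows a score, the authors' largest ChIP statistic within the peak, which was at least 3.00. The authors also deposited a false discovery rate (a q-value) and the highest log2 ratio of ChIP to input for each peak. These values depend on depth and input, so lists were compared by ranks within each list, and log2 ratios are printed as deposited. The lists do not state the depth of a library. The precision of a share was taken from its peak number as a 95% Wilson interval, which covers counting error only. No per-peak test between conditions was possible with 1 list per condition.

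Peaks outside the assembled chromosomes (0 to 34 per list) were left out, and 0 of the rest ended past a GRCm38 chromosome. Gene bodies and starts were from the basic GENCODE vM21 annotation. Coordinates are printed as deposited and may be off by 1 bp. Overlaps were computed with Python 3.11.15, pandas 2.3.3 and numpy 2.4.6 and tested on simulated intervals, and sequences were read with pysam 0.24.0 from GRCm38.p6. The genes named outside the members are, per list, at most 6 with the best WT rank among those acetylated in WT limb buds and in neither NIH3T3 list, and those going the other way where 3 or fewer did. A gene that this rule would name is not reported here. Members, gene lists and comparisons were chosen with earlier results of these data known. Alternatives were stricter or looser overlap, the better-ranked 50% of lists, an FDR under 0.05, equal-sized lists, smaller windows, a narrower promoter, leaving out each member and, added after the values were seen, the DMSO list alone.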

Additional observations from a re-analysis of the deposited data

How the results depend on the processing

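Of 78 recomputed values, 71 stayed within 1.5 times the reported count or inside the Wilson interval of the reported share, and 7 did not. With the better-ranked 50% of every list, 1 member, not 3, had an acetylated promoter in either NIH3T3 list, the WT H3K27ac peaks at the members fell to 22 and the DMSO peaks to 15, and 91.7% of the WT H3K4me2 peaks at the members (11 of 12) overlapped a Shh-/- peak, against 79.0% of all WT H3K4me2 peaks at that setting. Fewer peaks entered these counts by construction. The cause of the change in the H3K4me2 share was not tested. With all H3K27ac lists reduced to 43916 peaks, 1 member had an acetylated promoter in NIH3T3 cells and 15 DMSO peaks remained at the members. Shares of all genes with an acetylated promoter were not recounted for this setting or for the better-ranked 50%. With the gene body and its own promoter alone, 24 DMSO peaks were left. The share of the members' WT H3K27ac peaks in NIH3T3 lists was 27.3% (6 of 22) with the better-ranked 50%, against 48.6% of all WT peaks, and 19.0% (8 of 42) with equal-sized lists, against 39.2%. It was 13.0% to 28.0% over the other settings, with 16.0% for the DMSO list alone, and 11.6% (without Pecam1) to 21.1% (without Erg) when each member was left out in turn. The share of all WT peaks was not recounted for stricter or looser overlap or for the DMSO list alone. Without each member, the WT H3K27ac share in the Shh-/- list was 42.1% to 48.8% and the H3K4me2 share 68.0% to 76.9%. No paired analysis was possible because each list pools its replicates and the result comes from no test. Limits are the single list per condition, unknown depth, and antibodies, cell numbers and inputs that differ between limb buds and NIH3T3 cells.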
